A study of Mus musculus with 6 samples.

Results

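The 37 genes described here mark the blood vessels of the brain: endothelial cells, the barrier they form, sprouting vessels, and the mural cells (pericytes and smooth muscle) around them. They were taken by symbol from a list, among 12242 genes that could be tested in the series. Of the 37, 36 had a probe under their symbol and 28 were detected on enough arrays to be tested, meaning that 2 or more of the 6 arrays gave a detection p-value under 0.05. No probe carried the symbol Ly6a, a surface antigen of capillary endothelium.

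Gene expression was measured on 6 Illumina bead arrays of mouse glioma tissue, 2 labelled HoxA5 and 4 labelled mCherry, the controls. Every tumour was induced in the right frontal cortex of adult mice with chicken fibroblasts that shed RCAS virus for PDGFB, mixed with fibroblasts that shed virus for HoxA5 or for the fluorescent protein mCherry. The virus enters only cells with the tva receptor, which Ntva mice carry as a transgene driven by the nestin promoter, active in neural progenitors. Adult mice of mixed FVB/N, C57BL6, BALB/C and 129 background were either Ntva-Ink4a/Arf+/- or Ntva-Ink4a/Arf-/-, and the labels do not say which tumour came from which genotype. Both groups therefore share PDGFB and the loss of at least 1 copy of Ink4a/Arf. Mice were followed until signs of illness, and the time of collection of each tumour is not given. The titles number the tumours within each group, but nothing says that each came from a separate animal. The p-values therefore reflect spread among these samples, part of which may be technical. The question addressed was whether raised HOXA5 affects the aggressiveness of such tumours. In bulk tissue, fewer cells of a type and less RNA per cell cannot be told apart.

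In the healthy brain, endothelial cells are sealed by tight junctions, carry few vesicles, and express transporters that move nutrients in and drugs out. Pericytes embedded in the capillary wall help to keep this state. In gliomas, vessels sprout, tip cells express genes such as Esm1, and leaky vessels express Plvap.

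Median intensities ran from 136.1 to 166.8 per array, and 19950 to 21904 probes were detected. The Hoxa5 probe was detected on 0 of 6 arrays, so it does not check the labels. The vessel label of the gene set was borne out by its defining markers. Pecam1, Cldn5 and Esam, with Cdh5 from outside the set, were detected on all 6 arrays, and so were Abcc9 and Higd1b with the pericyte genes Pdgfrb, Rgs5 and Kcnj8. Tie1 was detected on 5 arrays and Kdr on 2, both mCherry. The tissue also held other cells, and their markers differed between the groups. All 9 tested neuron markers fell in HoxA5 tumours (list mean 8.38 and 9.66, against 11.10 to 12.89 on the mCherry arrays). Fibroblast markers rose for 5 of 8 (8.91 and 10.00, against 7.22 to 8.09), while Slc6a13, a transporter of meningeal fibroblasts singled out after its values were seen, had a difference of -1.84 without passing. Choroid plexus markers fell for 3 of 6 (5.11 and 5.66, against 7.70 to 9.96). The part of these changes in the vascular results was not tested.

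Ly6c1, of capillary endothelium, and Vtn, of pericytes, were lower in HoxA5 tumours. Of the 28 tested members 23 had positive differences, against 6714 of all 12242 genes, and none of the 23 passed. With limma's test adjusted over all genes, 0 of 28 members were called higher, against 1.21% of all genes, and 2 of 28 (7.14%) were called lower, against 4.64%; calls in either direction made up 5.85% of all genes. At an unadjusted p under 0.05 in limma, 7 members (25%) were higher and 3 (10.7%) lower, against 11.5% and 13.1% of all genes. Anpep, among the 7, met the detection filter only through the HoxA5 arrays, where it was high. Of the 25 members detected on all 6 arrays, 5 were higher and 3 lower at that level. The median log2 difference, HoxA5 minus mCherry, was 0.44 over the members and 0.07 over all genes. Both HoxA5 arrays lay above every mCherry array for 6 members (21.4%, against 18.3% of all genes) and below every one for 3 (10.7%, against 17.2%). Anpep is also among these 6.

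**Figure D1:**
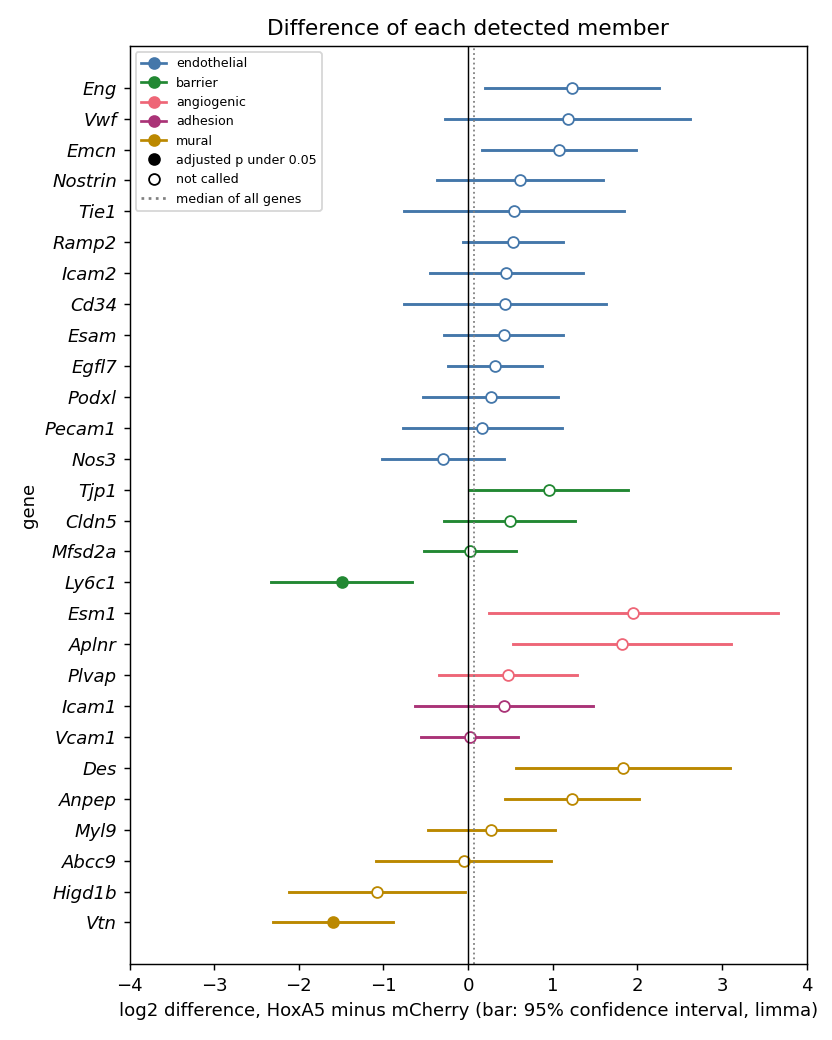
Log2 difference (x axis, HoxA5 minus mCherry) of each of the 28 detected members (y axis), coloured by role, with the 95% confidence interval from limma. Filled points are the 2 called genes, Ly6c1 at -1.49 and Vtn at -1.60, and the dotted line is the median of all genes at 0.07.

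The number of members that passed depended on single arrays. Without mCherry 4, 6 members were called higher (Anpep, Aplnr, Des, Emcn, Esm1 and Tjp1) and 2 lower, in a fit that called 8.57% of all genes higher and 11.3% lower. Of these, Anpep met the detection filter only with the HoxA5 arrays, where it was high. Without HoxA5 2, mCherry 1 or mCherry 2, 0 members were called lower in limma, and over all genes those fits called 2, 163 and 229 lower. Without HoxA5 1 or mCherry 3 the only member called was Vtn, with 116 and 426 genes called lower. Among the mCherry arrays mCherry 4 was the highest for 20 of 28 members (71.4%), against 32.2% of all genes. The arrays mCherry 1 and mCherry 3 held the lowest mCherry value for 24 members (85.7%), against 47.9% of all genes. The mCherry 4 array also had the lowest neuron list mean of its group, 11.10, and the highest fibroblast list mean, 8.09. Its likeness to the HoxA5 arrays was not limited to vascular genes. Over all tested genes mCherry 4 correlated at 0.963 and 0.962 with HoxA5 1 and 2. With mCherry 1, 2 and 3 it correlated at 0.950, 0.957 and 0.921. Within the HoxA5 group, HoxA5 1 was above HoxA5 2 for 22 members (78.6%, against 51.2% of all genes).

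**Figure D2:**
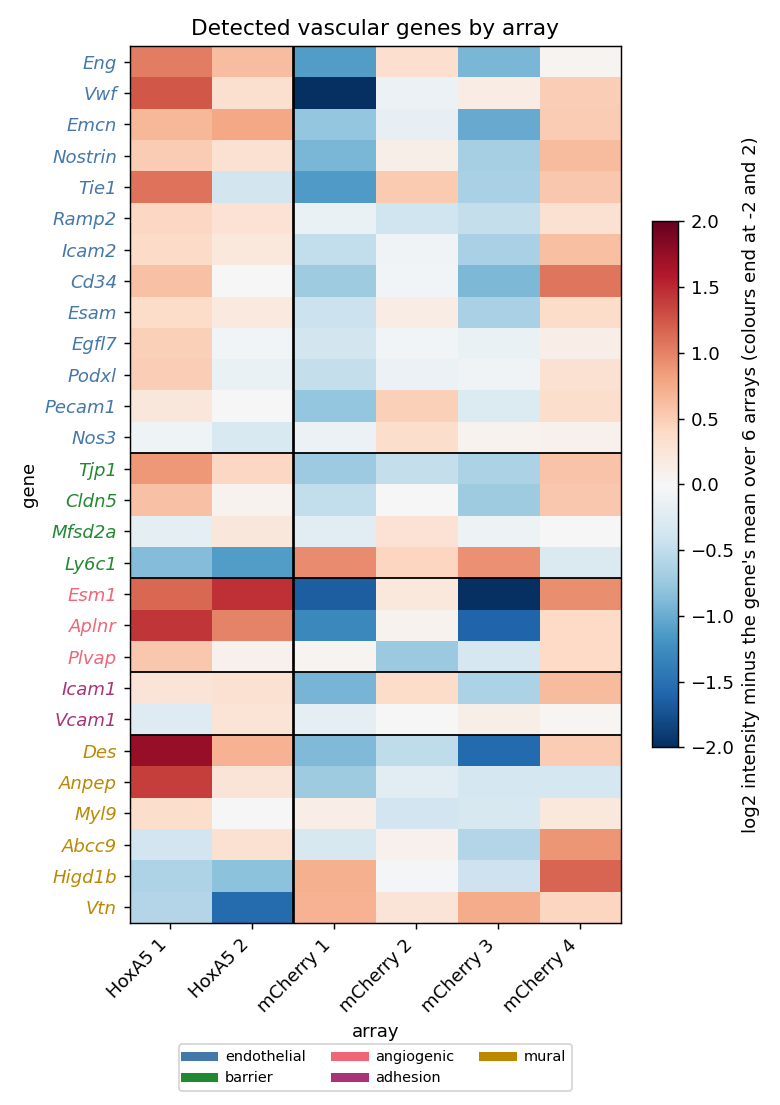
Log2 intensity of the 28 detected members (y axis, gene names coloured by role) on the 6 arrays (x axis), each minus the gene's own mean over all arrays. The columns of HoxA5 1 and mCherry 4 are mostly red, mCherry 1 and mCherry 3 are mostly blue, and Ly6c1, Vtn and Higd1b run the other way between the groups.

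The start regions of both called members are shown because the transduced factor belongs to the homeobox family, whose members bind sites with the core TAAT. The sequences are from RefSeq (GRCm38.p6), which held 30 start regions for 24 of the 37 genes, each of 250 bases before to 50 bases after a start. Vtn lies at chr11:78498870-78499169 on the + strand, and the shown start of Ly6c1, which has a further listed start, at chr15:75048614-75048913 on the - strand. Both are written 5′ to 3′ along the gene, and capitals mark TAAT read on either strand.
Vtn: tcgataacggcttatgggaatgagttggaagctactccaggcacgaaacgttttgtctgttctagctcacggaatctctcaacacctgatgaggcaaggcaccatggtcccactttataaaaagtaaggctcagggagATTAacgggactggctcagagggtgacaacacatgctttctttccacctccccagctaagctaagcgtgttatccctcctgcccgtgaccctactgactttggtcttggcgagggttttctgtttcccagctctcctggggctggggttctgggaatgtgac
Ly6c1: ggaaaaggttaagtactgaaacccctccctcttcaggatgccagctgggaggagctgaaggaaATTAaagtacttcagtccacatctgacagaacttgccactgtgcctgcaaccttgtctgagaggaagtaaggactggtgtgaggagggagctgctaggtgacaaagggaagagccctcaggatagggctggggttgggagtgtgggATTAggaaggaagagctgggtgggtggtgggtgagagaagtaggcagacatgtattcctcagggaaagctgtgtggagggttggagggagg
Vtn held 1 match and this start of Ly6c1 held 2. The other Ly6c1 start, whose window overlaps the shown one, held 1, which is the same site as the first match shown. The 4 letters are common: 58% of all 32851 start regions held them, and 17 of the 30 member regions (56.7%) did. A match describes letters in a window and does not show a binding site.

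Among the 14 general endothelial genes, none was called in limma. At an unadjusted p under 0.05, 2 (Emcn and Eng) were higher, against 11.5% of all genes. Of the 13 tested, 12 had a positive difference, against 6714 of all 12242 genes, with a median of 0.45. Eng, the TGF-beta family co-receptor endoglin, had log2 intensities of 9.21 and 8.81 on HoxA5 1 and 2, and of 7.08, 8.53, 7.29 and 8.24 on mCherry 1 to 4. The groups did not overlap, with mCherry 2 nearest to HoxA5. The difference was 1.22 (SE 0.46, limma adjusted p = 0.141). Emcn, the sialomucin endomucin, was at 10.26 and 10.36 on the HoxA5 arrays and at 8.82, 9.44, 8.60 and 10.10 on mCherry 1 to 4. Here mCherry 4 came closest to HoxA5, and the difference of 1.07 (SE 0.41, adjusted p = 0.144) did not pass. Ramp2, a partner of the adrenomedullin receptor, was at 11.84 and 11.71 on the HoxA5 arrays and at 11.28, 11.01, 10.94 and 11.73 on mCherry 1 to 4. The mCherry 4 value lay between the HoxA5 values (difference 0.53, SE 0.26, adjusted p = 0.245).

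The other tested endothelial genes all overlapped between the groups on the probe used, the brightest. Their differences ran from -0.29 for Nos3, the endothelial nitric oxide synthase, to 1.18 for Vwf, the clotting factor von Willebrand factor. The Vwf difference was 0.61 without mCherry 1, which was at 6.90 against 8.88, 9.13 and 9.48 on the other mCherry arrays and 10.23 and 9.32 on the HoxA5 arrays. Nostrin, which regulates that synthase, differed by 0.61, and the receptor kinase Tie1 by 0.54, with HoxA5 arrays far apart at 7.17 and 5.72. Icam2 (0.45), the surface mucins Cd34 (0.44) and Podxl (0.27), the junction protein Esam (0.42) and the secreted factor Egfl7 (0.32) differed by less. Pecam1, the junctional protein CD31, differed by 0.17 (95% interval -0.77 to 1.10). Its dimmer detected probe differed by 1.05 (adjusted p = 0.263 with every probe tested on its own), with both HoxA5 arrays above all mCherry arrays, so the size for Pecam1 depends on the probe. Egfl7 also depended on the probe. Its dimmer detected probes differed by 0.42, with overlap, and by 1.00 (limma adjusted p = 0.0865 with every probe tested on its own). On the latter, detected on 4 arrays, both HoxA5 arrays lay above all mCherry arrays. Several detected probes were present for 4 of the tested members, and for all 4 they moved in the same direction. Clec14a, an endothelial lectin, was detected on 0 arrays.

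Of the 24 further endothelial genes, 0 of 18 tested were called in limma, and the median difference was 0.61. At an unadjusted p under 0.05, 4 were higher and 1 lower, against 11.5% and 13.1% of all genes. Cd93, a receptor of angiogenic endothelium, was at 11.81 and 12.22 on the HoxA5 arrays and at 10.22, 10.68, 8.81 and 10.87 on mCherry 1 to 4 (difference 1.87, adjusted p = 0.0599, and 0.0219 to 0.104 over the alternatives). All mCherry values were lower than both HoxA5 values. Tal1, a transcription factor of blood and endothelium, differed by 1.14 (limma adjusted p = 0.139), and by 0.38 without background correction. It was above background on both HoxA5 arrays and on 1 mCherry array, so that the HoxA5 arrays alone met the filter. Tal1 is among the 4 counted as higher. Its difference was 0.34 without HoxA5 2 and 1.93 without HoxA5 1.

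Barrier genes split. Ly6c1 fell, the tight junction genes Tjp1 and Cldn5 had positive differences that did not pass, and 5 of the 9 could not be tested. Ly6c1, a membrane-anchored surface protein abundant in brain capillaries, was at 8.70 and 8.44 on the HoxA5 arrays and at 10.51, 9.99, 10.47 and 9.27 on mCherry 1 to 4. The groups did not overlap, and mCherry 4 lay nearest to HoxA5. The level was 2.82-fold lower in HoxA5 tumours (log2 difference -1.49, SE 0.37, limma adjusted p = 0.0483). The call was marginal: with no array left out, limma adjusted p ranged from 0.0344 to 0.0841 over the alternatives and missed 0.05 in 8 of them. The lowest, 0.0344, came with replicate number as a block, where the difference rests on the arrays numbered 1 and 2. The call did not hold without mCherry 1, mCherry 2 or mCherry 3 (0.0808 to 0.127). Without HoxA5 1 the difference was -1.63, and without HoxA5 2 it was -1.36. Monocytes express the near-identical Ly6c2, for which no probe is named here, so the probe may not tell the genes apart.

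Tjp1, the junction scaffold ZO-1, was at 9.23 and 8.78 on the HoxA5 arrays and at 7.64, 7.89, 7.73 and 8.94 on mCherry 1 to 4, a difference of 0.96 (SE 0.42, adjusted p = 0.194). Cldn5, the main sealing claudin of brain endothelium, was at 12.18 and 11.67 on the HoxA5 arrays and at 11.10, 11.60, 10.89 and 12.13 on mCherry 1 to 4, a difference of 0.49 (95% interval -0.29 to 1.27, adjusted p = 0.413). In both genes mCherry 4 lay between the HoxA5 arrays. Mfsd2a, which carries lysophospholipids into the brain and restrains vesicle traffic, differed by 0.02 (95% interval -0.52 to 0.57). The transporters Slco1a4, Abcb1a (P-glycoprotein) and Abcg2 were detected on 0 arrays and the junction protein Ocln on mCherry 3 alone, so nothing can be said of their levels. Over the 8 members that had a probe but were not tested, of which 5 were detected on 0 arrays and 3 on 1 array, the exact two-sided permutation p-values of the normalized values ran from 0.267 to 1, where 0.0667 is the smallest that the 15 splits allow.

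Of the 26 further barrier genes, 0 of 17 tested were called in limma, with a median of 0.48. At an unadjusted p under 0.05, 4 were higher and 2 lower, against 11.5% and 13.1% of all genes. Foxq1, a forkhead factor of brain endothelium, was at 9.20 and 8.86 on the HoxA5 arrays and between 7.74 and 8.21 on the mCherry arrays (difference 1.07, adjusted p = 0.0710, and 0.0486 to 0.289 over the alternatives). Spock2, a secreted proteoglycan, lay the other way, at 8.40 and 8.47 against 9.49, 9.41, 9.74 and 8.95 (difference -0.96, adjusted p = 0.0896). Neither gene overlapped between the groups.

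Angiogenic members had the largest median difference of the 5 roles, 1.82 over the 3 tested, and none passed in limma. At an unadjusted p under 0.05, 2 were higher, against 11.5% of all genes. Aplnr, the receptor of the peptide apelin in sprouting endothelium, was at 7.90 and 7.45 on the HoxA5 arrays and at 5.18, 6.54, 4.86 and 6.87 on mCherry 1 to 4. It was not detected on mCherry 3, and all mCherry values were lower than both HoxA5 values (difference 1.82, SE 0.57, adjusted p = 0.0925). Its ligand Apln was detected on 0 arrays. Esm1, the tip cell proteoglycan endocan, was at 9.85 and 10.17 on the HoxA5 arrays and at 7.06, 8.93, 6.61 and 9.64 on mCherry 1 to 4 (difference 1.95, SE 0.76, adjusted p = 0.155). The mCherry tumours thus spanned a wide range of Esm1 (SD 1.46), the largest SD among the mCherry values of any member, with mCherry 4 just under HoxA5. Plvap, the diaphragm protein of leaky and fenestrated vessels, which choroid plexus capillaries also express, was at 9.61 and 9.15 on the HoxA5 arrays and at 9.12, 8.32, 8.73 and 9.47 on mCherry 1 to 4. Its groups overlapped (difference 0.47, 95% interval -0.35 to 1.28, adjusted p = 0.458).

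**Figure D3:**
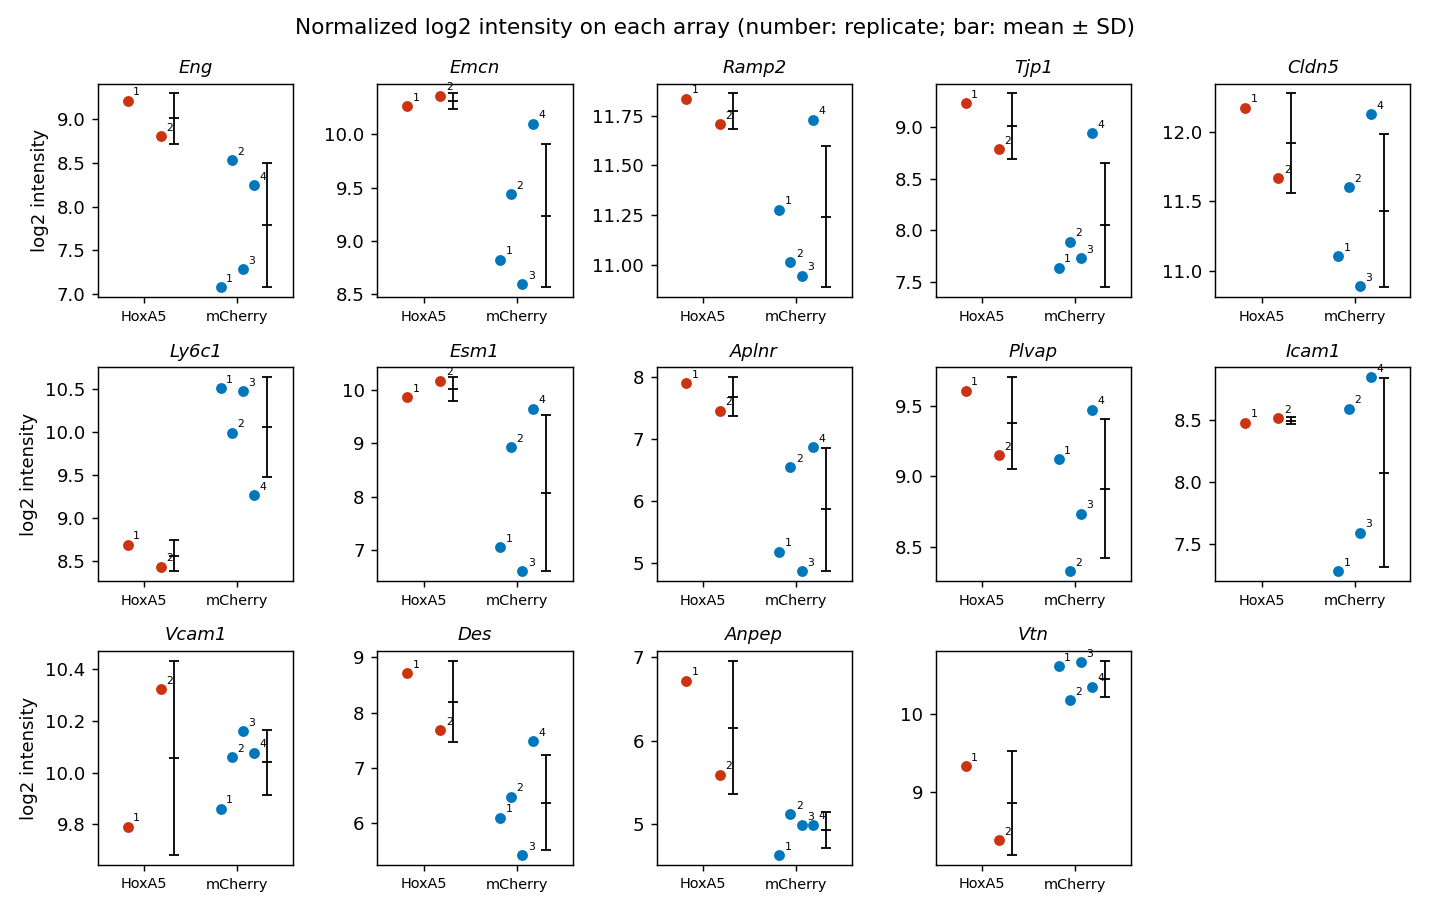
Normalized log2 intensity (y axis) of 14 members by group (x axis), with 1 point per array, the replicate number beside it, and the mean ± SD at the right of each group. Vertical scales differ between panels and do not start at 0; mCherry 4 lies at or near the HoxA5 points for Tjp1, Cldn5, Esm1 and Ramp2 but not for Vtn or Anpep.

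All 15 tested genes of the further angiogenic and tip cell list had positive differences, from 0.55 to 1.72 with a median of 1.18. Over all genes, 6714 of 12242 differences were positive. None was called in limma, and 8 had an unadjusted p under 0.05, against 11.5% of all genes that were higher at that level. The part of fibroblasts and other cells in the differences of this list was not tested. The smallest p-values were those of Pxdn, a peroxidase that crosslinks basement membrane collagen, with a difference of 0.91 (adjusted p = 0.0981), and Lamb1, a laminin chain of basement membranes, with 1.59 (adjusted p = 0.105, and 0.0431 to 0.168 over the alternatives). For both, the HoxA5 arrays lay above all mCherry arrays, and without background correction the differences were 0.27 and 0.62. Without mCherry 3 that of Pxdn was 0.39. Pxdn had 2 detected probes, and each fit took the brightest anew. On the probe used here mCherry 3 was the highest mCherry array, at 5.31, so leaving it out does not lower that probe's difference. The 0.39 may thus rest on the other probe and does not show dependence on that array.

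Leukocyte adhesion members showed no difference that passed in limma, with 0 at an unadjusted p under 0.05. Icam1, which binds leukocyte integrins and is also made by glia and macrophages, was at 8.48 and 8.51 on the HoxA5 arrays and at 7.28, 8.59, 7.59 and 8.84 on mCherry 1 to 4 (difference 0.42, 95% interval -0.63 to 1.47, adjusted p = 0.612). Vcam1, the ligand of integrin VLA-4, was at 9.79 and 10.32 on the HoxA5 arrays and at 9.86, 10.06, 10.16 and 10.08 on mCherry 1 to 4 (difference 0.02, 95% interval -0.56 to 0.59, adjusted p = 0.976). In both genes the groups overlapped. Selp, the venular adhesion receptor P-selectin, was detected on mCherry 2 alone.

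Of 6 tested further adhesion genes, 1 rose and 1 fell in limma, against 1.21% and 4.64% of all genes, with a median of -0.39. At an unadjusted p under 0.05, 1 was higher and 2 lower, against 11.5% and 13.1% of all genes. Ackr1, a chemokine-binding receptor of venules and red cells, was at 8.22 and 7.41 on the HoxA5 arrays and at 9.61, 9.82, 10.49 and 8.77 on mCherry 1 to 4, and was 3.63-fold lower (difference -1.86, SE 0.46, adjusted p = 0.0467). Jam3, a junctional adhesion molecule that neural and glial cells also express, was at 8.64 and 9.07 against 7.37, 7.21, 6.97 and 7.90, and rose by 1.49 (SE 0.37, adjusted p = 0.0459). Neither gene overlapped between the groups, as held for 35.5% of all genes. Both of these calls were lost in every fit without 1 array other than mCherry 4. With no array left out, limma adjusted p over the alternatives ranged from 0.0344 to 0.0841 for Ackr1 and from 0.0350 to 0.112 for Jam3.

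Mural genes went in both directions. Vtn fell, Higd1b was lower without passing, and Des and Anpep were higher without passing, so that the median of the 6 tested was 0.11. Over the mural members detected on all arrays the median was -0.05. Anpep, which met the detection filter only through the HoxA5 arrays, is not among those. Vtn, the adhesive glycoprotein vitronectin that brain pericytes make, was at 9.33 and 8.38 on the HoxA5 arrays and at 10.62, 10.18, 10.67 and 10.35 on mCherry 1 to 4. The mCherry values lay close together (SD 0.23) and all were higher than both HoxA5 values. The level was 3.03-fold lower in HoxA5 tumours (difference -1.60, SE 0.32, adjusted p = 0.0223). Vtn passed under every alternative that left no array out (limma adjusted p 0.0222 to 0.0487). It did not pass without HoxA5 2 (difference -1.12, 0.228), mCherry 1 (-1.54, 0.0742) or mCherry 2 (-1.69, 0.0503).

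Higd1b, a mitochondrial protein enriched in brain pericytes, was at 6.82 and 6.62 on the HoxA5 arrays and at 8.15, 7.40, 7.03 and 8.60 on mCherry 1 to 4. The groups did not overlap, with a difference of -1.08 (SE 0.47, adjusted p = 0.191). The pericyte marker Rgs5, a regulator of G protein signalling one of the defining markers listed above, was at 6.82 and 6.69 against 8.06, 8.21, 7.73 and 7.85 (difference -1.21, SE 0.33, adjusted p = 0.0599). All 4 mCherry values of Rgs5 were higher than both HoxA5 values. Over its alternatives the adjusted p ran from 0.0406 to 0.167, and the difference was -0.69 without background correction. The pericyte growth factor receptor Pdgfrb, which fibroblasts also express, had a difference of 1.32 (adjusted p = 0.308; 0.73 without background correction), with groups that overlapped. Abcc9, a subunit of the pericyte potassium channel, differed by -0.05 (95% interval -1.08 to 0.98), and Kcnj8, another subunit of that channel, by -0.18 (adjusted p = 0.864).

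Des, the muscle intermediate filament desmin, was at 8.72 and 7.68 on the HoxA5 arrays and at 6.10, 6.48, 5.42 and 7.49 on mCherry 1 to 4 (difference 1.83, SE 0.56, adjusted p = 0.0853). Anpep, the aminopeptidase CD13 of pericytes and fibroblasts, was at 6.72 and 5.59 against 4.63, 5.12, 4.98 and 4.99 (difference 1.22, SE 0.35, limma adjusted p = 0.0719). It was detected on both HoxA5 arrays and, within the mCherry group, on mCherry 2 alone. The HoxA5 arrays alone thus met the filter, and the other mCherry values are not above background. Without HoxA5 1 the difference of Anpep was 0.65. In neither gene did the groups overlap. Without background correction the differences of dim members were smaller, at 0.39 for Anpep, 0.99 for Des, 0.81 for Aplnr and -0.63 for Higd1b. Myl9, a myosin light chain of smooth muscle, differed by 0.28 (95% interval -0.47 to 1.02), and the smooth muscle myosin Myh11 was detected on mCherry 3 alone.

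Of 14 tested further mural genes, 2 rose and 0 fell in limma, against 1.21% and 4.64% of all genes, with a median of 0.98. At an unadjusted p under 0.05, 6 were higher and 1 lower, against 11.5% and 13.1%. The counts of higher genes and the median include Tagln, which met the detection filter only through the HoxA5 arrays, where it was high. Both called genes encode contractile proteins that myofibroblasts share with smooth muscle. Acta2, smooth muscle actin, was at 12.98 and 11.73 on the HoxA5 arrays and at 9.96, 10.71, 10.44 and 11.34 on mCherry 1 to 4, and rose 3.35-fold (difference 1.74, SE 0.43, adjusted p = 0.0455). Tagln, the actin-binding protein transgelin, was at 6.74 and 6.04 against 4.69, 5.17, 4.94 and 5.10, and rose (difference 1.42, SE 0.31, adjusted p = 0.0318). It was detected on both HoxA5 arrays and on 1 of the 4 mCherry arrays, so that the HoxA5 arrays alone met the filter and the other 3 mCherry values are not above background. The HoxA5 arrays lay above all mCherry arrays for both, as they did for 6 of the 8 tested fibroblast markers and 18.3% of all genes. The part of fibroblasts in these changes was not tested. Both calls were lost in every fit without 1 array other than mCherry 4. The difference of Acta2 was 1.13 without HoxA5 1, and Tagln differed by 0.45 without background correction. With no array left out, limma adjusted p over the alternatives ranged from 0.0198 to 0.0852 for Acta2 and from 0.0318 to 0.0751 for Tagln.

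**Figure D4:**
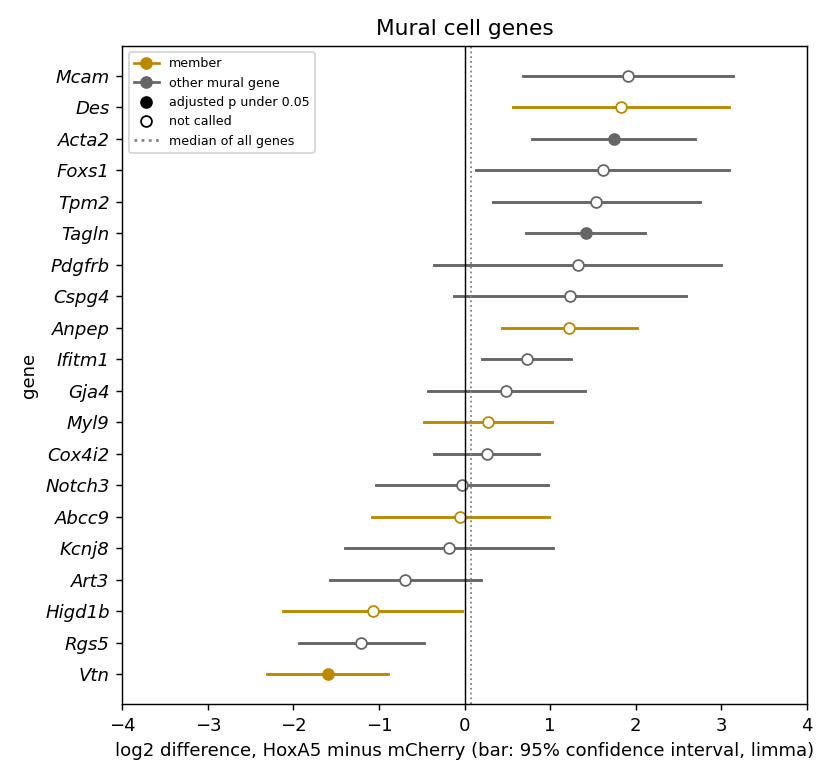
Log2 difference (x axis, HoxA5 minus mCherry) of the 20 detected mural genes (y axis), members in ochre and further mural genes in grey, with the 95% confidence interval from limma. Filled points are called: Vtn lies at -1.60, and Acta2 and Tagln at 1.74 and 1.42.

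Contractile genes of smooth muscle are classical targets of serum response factor, which binds the CArG box, and the start region of Myl9 is shown as the only member region that held this motif. It lies at chr2:156775214-156775513 on the + strand of GRCm38.p6 (RefSeq), and capitals mark the CArG box, searched on both strands.
Myl9: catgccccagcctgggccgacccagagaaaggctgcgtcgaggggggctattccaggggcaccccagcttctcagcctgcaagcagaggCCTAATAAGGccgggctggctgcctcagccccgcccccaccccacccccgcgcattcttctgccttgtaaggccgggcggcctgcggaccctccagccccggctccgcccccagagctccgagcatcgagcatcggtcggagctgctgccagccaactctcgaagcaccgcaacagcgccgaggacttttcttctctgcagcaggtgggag
The box was in 1.63% of all start regions and in 1 of the 30 member regions. Des, whose difference was larger than that of Myl9, had no match in its window.

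The list means of barrier, angiogenic and mural genes are set side by side here, and differences between the lists were not tested. Barrier members averaged 10.28 and 10.08 in HoxA5 tumours and 10.05 to 10.39 in mCherry tumours, with overlap. This rests on 4 members, and the 17 further barrier genes averaged 8.97 and 8.99 against 8.56 to 8.87, without overlap. The angiogenic mean was 9.12 and 8.92 against 6.74 to 8.66, without overlap, and that of the further angiogenic list was 9.70 and 9.38 against 7.64 to 9.30, also without overlap. The mural mean was 7.83 and 7.33 against 7.09 to 7.98, and that of the further mural list was 8.55 and 7.98 against 7.06 to 8.10, both with overlap. The levels of lists rest on different probes and are compared only between arrays.

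**Figure D5:**
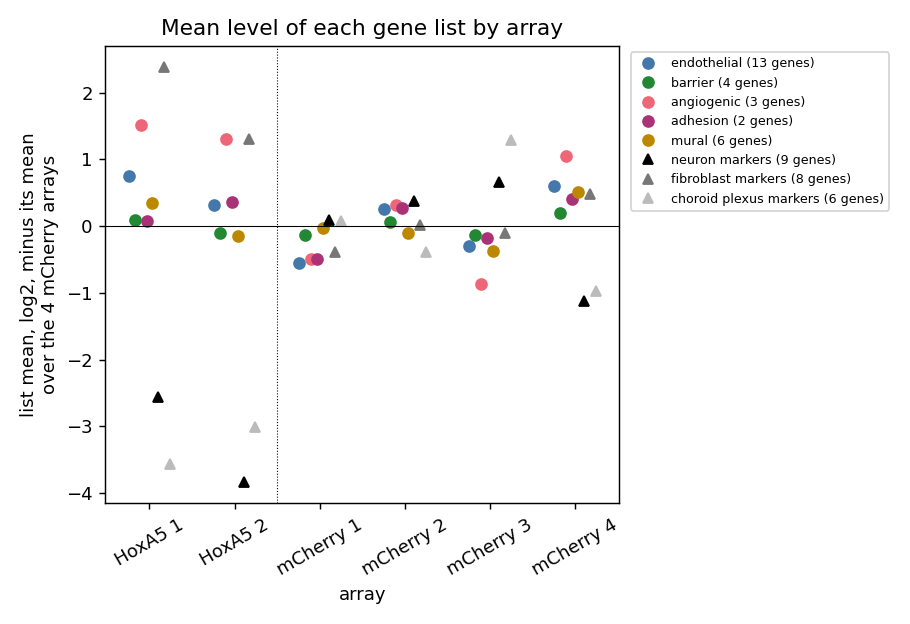
Mean log2 intensity of each role's tested members (circles) and of marker lists of other cell types (triangles) on each array (x axis), minus the list's mean over the 4 mCherry arrays (y axis). The angiogenic members lie above the mCherry range on both HoxA5 arrays, the barrier and mural members within it, and neuron markers are lowest on the HoxA5 arrays, with mCherry 4 the lowest of the mCherry arrays.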

How the data were processed

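RNA of 6 tumours was measured on bead arrays. The authors deposited linear, non-normalized intensities and a detection p-value for each probe, per the file headers. The authors also deposited log2 values of the same probes, for which the submitters' processing notes name limma. These keep the rank of every intensity (Spearman 1 on each array) and have medians of 7.29. The sources used here do not name their background step.

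Intensities were background-corrected, quantile-normalized and logged with neqc (offset 16) in limma 3.58.1 under R 4.3.3. The offset understates differences of dim probes, and quantiles can hide a shift of total RNA. Of 45281 probes, 34885 had 1 symbol in the platform annotation, 18 several and 10378 none. A gene was its brightest probe detected (p under 0.05) on at least 2 arrays. HoxA5 (n = 2) and mCherry (n = 4) were compared with lmFit and eBayes with an intensity trend, adjusted by Benjamini-Hochberg over 12242 genes, and called at adjusted p under 0.05. All adjusted p-values of single genes are limma's, from this fit unless said otherwise. The number of arrays limits the precision. Members, roles and lists were chosen with earlier results of these data known, so list medians carry no test. Values on every array are given for called members and the 3 smallest p-values per role, and further genes are those called or the 2 smallest p-values per list. Alternatives covered background, scaling, the authors' values, detection filter, probes, variance trend, replicate number, threshold, sex (read from Xist and Eif2s3y) and each array left out.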

Additional observations from a re-analysis of the deposited data

How the results depend on the processing

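Members called higher numbered 0 in the analysis as reported, 1 with replicate number as a block, 3 at an adjusted p under 0.10, and 0 to 6 with 1 array left out. Members called lower numbered 2, and 1 without background correction, with median scaling, in the authors' values, with the probes of a gene averaged, with all probes kept whether detected or not, with every probe on its own, without the intensity trend and with sex as a block, Vtn in each case. With 1 array left out it was 0 to 2. The barrier median was 0.26, 0.42 with median scaling and -0.068 without a detection filter, where undetected probes enter. The angiogenic median, 1.82, became 0.84 in the authors' values and 0.81 when the background was not corrected. Mfsd2a, at 0.02, turned to -0.013 with the replicate block, and Abcc9, at -0.05, to 0.084 with median scaling and 0.080 with the replicate block. With 1 array left out, differences ran from -0.25 to 0.28 for Vcam1, -0.075 to 0.35 for Pecam1, -0.047 to 0.57 for Podxl, -0.19 to 1.25 for Tie1, -0.19 to 0.24 for Mfsd2a and -0.39 to 0.29 for Abcc9. Of 673 values of 40 named genes under these settings, 580 kept their direction and side of the threshold. Uncalled genes that stayed uncalled are among the 580, so this count does not show how stable the calls were. In 53 values a gene called in the analysis as reported kept its direction but no longer passed. The values of genes outside the set were added after the data were seen. The cause of these changes was not tested, apart from the fewer arrays or other genes that a setting itself brings.

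The numbers 1 and 2 are shared by both groups, but deviations of same-numbered arrays correlated at -0.36 and -0.24, so the numbers were not taken to pair tumours. The remaining mCherry arrays have a number of their own, so with the block every difference rests on the arrays numbered 1 and 2. With the block Esm1 passed (limma adjusted p = 0.0422, 0.0422 to 0.224 over its alternatives). Over all genes, 148 were higher and 568 lower. These became 159 and 370 when the background was not corrected, 265 and 437 with median scaling, 144 and 362 in the authors' values, 95 and 453 without a detection filter, 236 and 669 with the block, 31 and 307 with sex as a block, and 506 and 1003 at an adjusted p under 0.10. With 1 array left out they ran from 0 to 1038 and from 2 to 1370. Median scaling moved the median of all genes from 0.07 to 0.20. Fits without a HoxA5 array assume that the lone HoxA5 array varies like the mCherry arrays.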

Other observations

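Marker lists of blood cells and of cells around vessels were also read. None of 5 tested erythroid genes was called in limma, with 0 at an unadjusted p under 0.05, and their mean levels were 9.05 and 9.18 in HoxA5 tumours against 8.82 to 10.57 in mCherry tumours. None of 8 tested microglia and macrophage genes was called, with 0 at an unadjusted p under 0.05, and their mean was 9.15 and 9.07 against 8.78 to 9.28. Among 10 astrocyte genes, whose end-feet wrap brain vessels, 2 fell and the mean was 10.14 and 9.98 against 10.38 to 10.96 on mCherry 1, 2 and 4 and 11.14 on mCherry 3.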
